A study of Homo sapiens with 10 samples.

Results

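HRAS and NRAS, which encode small GTPases of the RAS family, were examined in cisplatin-sensitive and cisplatin-resistant bladder cancer cells together with 7 genes whose transcription is commonly read as output of the MAPK pathway. These 7 were DUSP4, DUSP5 and DUSP6, SPRY2 and SPRY4, and ETV4 and ETV5. The 9 genes were listed by name for their place in the pathway, without a threshold on any value, though with earlier results of these data known. By Ensembl identifier, all 9 were found among the 61533 genes of the count tables. All 9 also passed the filter on low counts, which left 16181 genes for the test.

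RNA was sequenced from T24, a human bladder cancer cell line that is known to carry a mutant HRAS, and from T24R2, a derivative of T24 obtained by serial desensitization to cisplatin. Each line gave 5 libraries, all from day 3 of culture in the same medium (RPMI with serum and antibiotics). The study's methods describe T24R2 as maintained with cisplatin while the sample labels list no drug for either line, so the history of selection and any exposure at harvest cannot be told apart here. Each group was 1 cell line, and the labels do not say that the 5 libraries came from separate cultures, so the p-values measure the spread between these libraries, which may be technical. The counts were summed per gene and do not distinguish a mutant from a normal HRAS transcript.

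RAS proteins switch between an inactive form bound to GDP and an active form bound to GTP. Active RAS recruits RAF kinases, which phosphorylate the MEK kinases, and these in turn phosphorylate the ERK kinases that enter the nucleus. Among the genes that ERK signalling induces are its own inhibitors, including the DUSP phosphatases and the Sprouty proteins, and the ETS transcription factors ETV4 and ETV5. In bladder cancer, the RAS and MAPK pathway is often switched on by mutations of receptors or of RAS genes.

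The sequences around the transcription starts of the RAS pair are shown because HRAS mRNA was lower and NRAS mRNA higher in T24R2. Promoters from RefSeq (GRCh38.p14, 250 bases before to 50 after a start) matched 5 of the 9 genes, namely HRAS, NRAS, DUSP6, SPRY2 and SPRY4. Each stretch runs 5′ to 3′ on the minus strand from 140 bases before to 30 bases after the RefSeq start, HRAS at chr11:535547-535716 and NRAS at chr1:114716742-114716911. The HRAS start lies inside the span over which HRAS was counted. Capitals mark an ETS site (CCGGAAG) or a GC box (GGGCGG), each on either strand.
HRAS: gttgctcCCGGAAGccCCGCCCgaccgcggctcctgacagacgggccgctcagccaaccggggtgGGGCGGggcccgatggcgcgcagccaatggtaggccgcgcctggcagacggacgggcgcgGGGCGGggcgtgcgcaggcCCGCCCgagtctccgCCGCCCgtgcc
NRAS: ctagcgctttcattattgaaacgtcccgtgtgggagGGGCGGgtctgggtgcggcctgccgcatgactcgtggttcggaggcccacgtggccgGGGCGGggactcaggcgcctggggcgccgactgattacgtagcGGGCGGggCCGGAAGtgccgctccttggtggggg
Each of the RAS promoters held 1 ETS site, at -133 to -127 in HRAS and at 5 to 11 in NRAS, counted from 1 at the first transcribed base. GC boxes numbered 5 in HRAS and 3 in NRAS. An ETS site occurred in 10.3% of the 35116 promoters of the same length, and a GC box in 45.0%. The promoters of DUSP6, SPRY2 and SPRY4 held no ETS site in these letters. AP-1 sites (TGANTCA, in 7.71% of all promoters), cyclic AMP response elements (TGACGTCA, in 1.85%) and CArG boxes (in 1.29%) were searched on both strands and matched none of the 7 promoters of these 5 genes. These matches are letters in a window and were not measured as bound sites.

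Libraries held 9257843 to 10247941 counts in T24 and 9591379 to 10840954 in T24R2, and mitochondrial genes took 2.68% to 2.91% and 2.35% to 2.97% of them. All 20 pairs of libraries within a line differed by more than sampling noise, so none was counted as a repeat. Of the 16181 genes tested with edgeR's quasi-likelihood test and Benjamini-Hochberg adjustment, 51.4% were called different between the lines at an adjusted p under 0.05 with a change of more than 0.5 on the log2 scale, 24.9% higher and 26.5% lower in T24R2. For 61.2% of the genes, the libraries of the lines did not overlap. Over all genes the median change was 0.01 on the log2 scale, or 0.18 without scaling beyond library size, and unscaled counts changed the split of the calls from 4027 higher and 4282 lower to 5206 and 3431. Epithelial identity was checked with 16 urothelial and epithelial markers. Their summed level was 4943 to 5676 CPM (TMM-scaled counts relative to the library size) in T24 and 3013 to 3217 CPM in T24R2, and each of the 8 markers tested was called lower. The keratins KRT7, KRT8 and KRT18 were abundant in both lines, whereas 4 of the 16 markers, KRT20 and CDH1 among them, had 3 counts or fewer in every library. Other markers were nearly absent from T24R2 only. KRT19 fell from 267 to 0.0887 CPM, GATA3 from 22.1 to 0.214 CPM and EPCAM from 4.45 to 0.130 CPM. A list of 7 leukocyte and endothelial markers summed to 227 to 279 CPM in T24 and 1.87 to 3.74 CPM in T24R2, nearly all of it CDH5 (239 CPM on average in T24). The part of these marker differences in the results on the RAS and MAPK genes was not tested.

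Of the 9 genes, 6 were called, against 51.4% of all genes tested. Called higher in T24R2 were 2, NRAS and SPRY4, and called lower were 4, HRAS, DUSP4, DUSP5 and DUSP6, against 24.9% and 26.5% of all genes. SPRY2, ETV4 and ETV5 were not called. The libraries of the lines lay apart for 7 of the 9, against 61.2% of all genes. The median log2 fold change of the 9 was -0.06, so the set did not move one way as a whole. In these bulk samples, fewer cells of a type and less RNA per cell cannot be told apart. Within a line the libraries were close, with coefficients of variation from 3.90% for SPRY4 to 8.29% for ETV5 in T24 and from 2.69% for ETV5 to 7.79% for SPRY4 in T24R2.

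**Figure D1:**
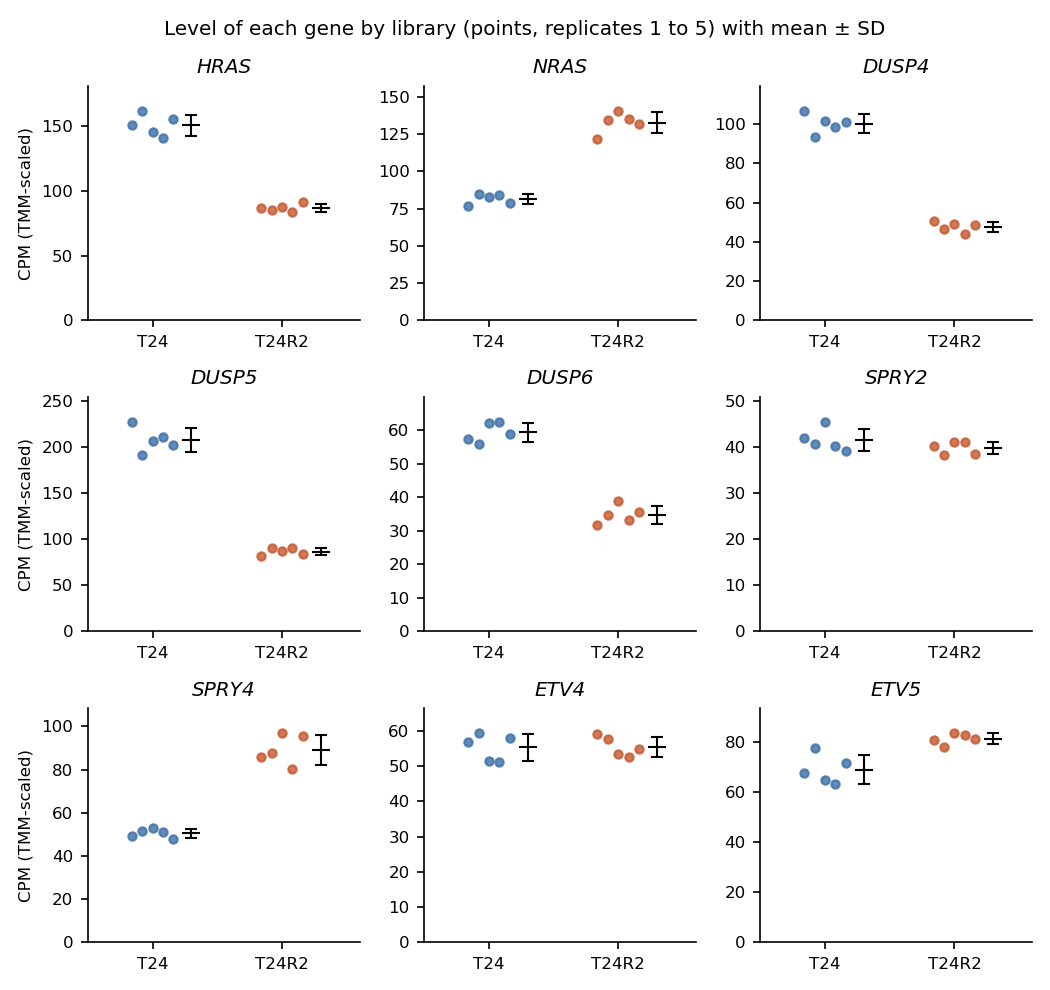
Level of each of the 9 genes (CPM, y axis starting at 0) in the 5 libraries of T24 (blue) and the 5 of T24R2 (orange), with mean ± SD beside the points. HRAS, DUSP4, DUSP5 and DUSP6 lie lower and NRAS and SPRY4 higher in every T24R2 library, SPRY2 and ETV4 overlap between the lines, and ETV5 lies slightly higher in T24R2 without overlap.

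HRAS (ENSG00000174775.18, chromosome 11 of hg38, 532242 to 537321, minus strand) had 151, 162, 145, 141 and 156 CPM in T24 replicates 1 to 5. The T24R2 libraries had 86.4, 84.9, 87.7, 84.0 and 91.1 CPM. Every T24R2 library lay below every T24 library, with T24 replicate 2 the highest of the 10. The mean fell from 151 ± 8.10 to 86.8 ± 2.76 CPM (SD, n = 5 each), which is 57.6% of the T24 level. In log2 units HRAS changed by -0.80 (standard error 0.05, 95% interval -0.90 to -0.70, adjusted p = 1.0e-17 by edgeR's quasi-likelihood test). This absolute change was larger than that of 65.3% of the genes tested.

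NRAS (ENSG00000213281.5, chromosome 1, 114704469 to 114716771, minus strand) went the other way. Its T24 libraries had 76.9, 85.0, 83.1, 84.0 and 79.0 CPM in the order of their replicate numbers. In T24R2 they had 121, 134, 140, 135 and 131 CPM, and T24R2 replicate 1, the lowest of these, was still above all of T24. The NRAS mean rose from 81.6 ± 3.48 to 132 ± 7.02 CPM (SD, n = 5 each), which is 0.70 ± 0.05 (SE) in log2 units (95% interval 0.60 to 0.80, adjusted p = 1.7e-15 by the same edgeR test). For HRAS and NRAS, and for each of the 5 further genes below whose libraries did not overlap, an exact two-sided permutation test of CPM gave p = 0.00794, the smallest value that 5 libraries against 5 allow.

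The balance between both RAS transcripts was taken within each library, where the scaling cancels. Per kilobase of exon, T24 held 3.29 ± 0.232 HRAS for each NRAS (SD, n = 5, range 2.98 to 3.50) and T24R2 held 1.17 ± 0.0754 (SD, n = 5, range 1.11 to 1.27). HRAS thus remained above NRAS per length in every library, but by a far smaller margin in T24R2. The log2 ratio differed by -1.49 between the lines (exact two-sided permutation test over libraries, p = 0.00794, 0.0119 after adjustment over the 6 pairs of family members compared), and leaving out any 1 library kept it between -1.52 and -1.46. Among the 80 other members and pathway genes, those whose log2 CPM followed HRAS most closely over the 10 libraries were FOSL1 (Pearson r = 0.997), a subunit of AP-1, and HBEGF (r = 0.992), a ligand of the epidermal growth factor receptor. For NRAS they were RASA1 (r = 0.987), a GTPase activator of RAS, and SPRY4 (r = 0.981). These correlations share the difference between the lines and are given as a description only.

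The genes that lie next to both RAS genes are shown with them. Of the 10 tested genes nearest to HRAS by start, 5 on each side over 220 kb, 8 were called lower and 0 higher, with a median log2 fold change of -0.69 (range -2.69 to 0.08). The nearest were RNH1, a ribonuclease inhibitor, at -0.64, and LRRC56 at -1.38 (2.98 CPM in T24 and 1.14 in T24R2). PKP3, at 0.08, and LMNTD2, at -0.44, were the 2 that were not called. Around NRAS, all 10 neighbours over 1571 kb were called higher, with a median log2 fold change of 0.82. DENND2C, the nearest on 1 side, was at 1.72 (1.21 CPM in T24 and 3.99 in T24R2). Over all genes tested, 24.9% were called higher and 26.5% lower. Neighbouring genes are not independent of each other, and no test was run on them.

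**Figure D2:**
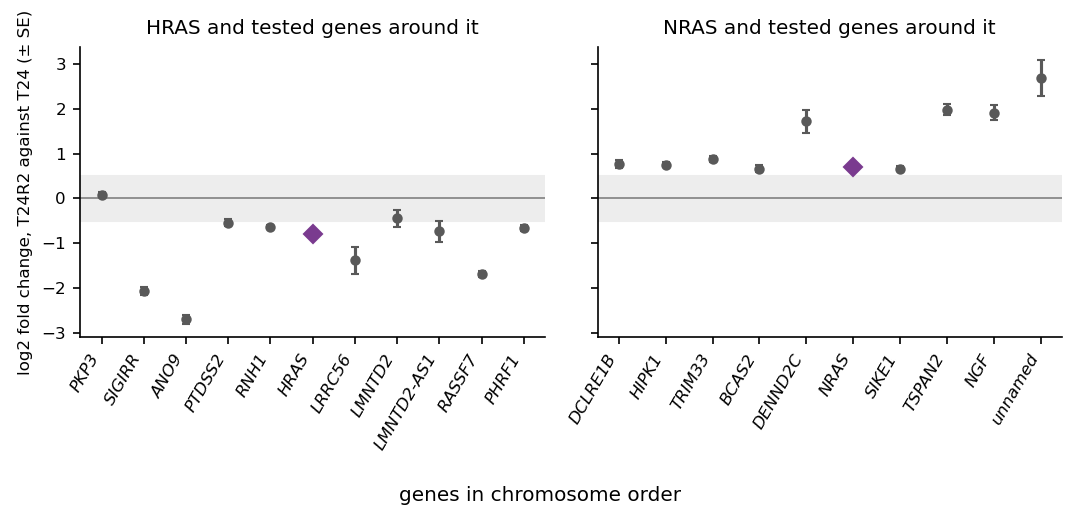
Log2 fold change (T24R2 against T24, y axis, bars ± SE) of HRAS and NRAS (diamonds) and of 10 HRAS and 9 NRAS neighbours in chromosome order (x axis), with the range from -0.5 to 0.5 shaded. Of the HRAS neighbours, 8 of 10 were called lower, whereas all 9 NRAS neighbours plotted were called higher.

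Among the DUSP genes, which encode phosphatases that remove the activating phosphates of ERK, DUSP5 showed the largest change of the 9 genes under the edgeR test. DUSP5 (ENSG00000138166.6, chromosome 10, 110497907 to 110511533, plus strand) encodes a nuclear ERK phosphatase. Its levels were 227, 191, 207, 211 and 202 CPM in the 5 libraries of T24 and 82.1, 90.2, 87.0, 90.1 and 83.6 CPM in those of T24R2. The lowest T24 library, replicate 2, lay far above the highest T24R2 library. The mean fell from 208 ± 13.2 to 86.6 ± 3.68 CPM (SD, n = 5 each), or to 41.7% of T24, which is -1.26 ± 0.05 (SE) in log2 units (adjusted p = 4.9e-24 by edgeR's quasi-likelihood test).

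DUSP4 (ENSG00000120875.9, chromosome 8, 29333064 to 29350684, minus strand), also a nuclear phosphatase, had 107, 93.4, 102, 98.7 and 101 CPM in T24. T24R2 replicates 1 to 5 had 50.5, 46.4, 49.1, 43.9 and 48.9 CPM, all below T24. Its mean fell from 100.3 ± 4.83 to 47.8 ± 2.60 CPM (SD, n = 5 each), which is -1.07 ± 0.06 (SE) in log2 units (adjusted p = 6.0e-20 by the same edgeR test). DUSP6 (ENSG00000139318.8, chromosome 12, 89347235 to 89352501, minus strand) encodes the cytoplasmic phosphatase with a strong preference for ERK. Its T24 values were 57.4, 56.0, 62.0, 62.4 and 58.8 CPM, against 31.7, 34.7, 38.8, 33.3 and 35.5 CPM in T24R2, again without overlap. The DUSP6 mean fell from 59.3 ± 2.83 to 34.8 ± 2.66 CPM (SD, n = 5 each), which is -0.77 ± 0.07 (SE) in log2 units (adjusted p = 2.3e-13 by the same edgeR test).

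Exons of DUSP6 are overlapped over 1105 bases, 28.6% of their length, by the uncharacterized gene ENSG00000274021 on the opposite strand. Counting used a strand setting whereas the kit is not described as strand-specific, so reads of both genes may be mixed. The overlapping gene had 209 counts per T24 library and 160 per T24R2 library, against 550 and 377 for DUSP6. With all of its counts taken off DUSP6, the log2 fold change was -0.88, and DUSP6 was still called lower.

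The size of the fall differed within the phosphatase family, by exact two-sided permutation tests of the within-library log2 ratios adjusted over the 6 pairs. DUSP5 fell by more than DUSP6 (difference of log2 ratios -0.49, adjusted p = 0.0119 by exact permutation), and DUSP4 also fell by more than DUSP6 in the counts as deposited (-0.30, adjusted p = 0.0190 by exact permutation). With the opposite-strand counts taken off DUSP6, a check chosen after seeing the data, the DUSP4 to DUSP6 difference was -0.19 and did not pass (adjusted p = 0.135 by exact permutation), while the DUSP5 to DUSP6 difference was -0.39 (adjusted p = 0.0238 by exact permutation). The DUSP4 to DUSP5 difference was smaller, at 0.19 (adjusted p = 0.0238 by exact permutation), and did not pass without T24 replicate 1 (0.18, adjusted exact p = 0.0635), T24 replicate 2 (0.20, 0.0556) or T24 replicate 4 (0.18, 0.0635). Among the 10 nearest tested genes, 3 were called lower and 0 higher beside DUSP4, 5 lower and 1 higher beside DUSP5, and 2 lower and 2 higher beside DUSP6, where 26.5% of all genes tested were called lower and 24.9% higher. The counts beside DUSP4 and DUSP6 were thus close to those shares in the lower direction. The median log2 fold change of the neighbours was -0.44 for DUSP4, all of them negative (range -1.34 to -0.14). Several of these DUSP4 neighbours overlap each other in position, among them KIF13B and ENSG00000259607, both called lower. They are thus not all separate loci. The median of the neighbours was -0.54 for DUSP5 and -0.21 for DUSP6, against 0.01 over all genes tested. The immediate neighbours of DUSP5 were its divergent transcript DUSP5-DT, at a log2 fold change of 1.20, and SMC3, a cohesin subunit, at -0.38. DUSP5-DT thus went opposite to DUSP5 itself, but at a low level (1.57 CPM in T24 and 3.62 in T24R2). Beside DUSP4, the nearest genes were the uncharacterized ENSG00000254129, at -0.68, and SARAF, at -0.41, neither called. Beside DUSP6 they were KITLG, the ligand of the KIT receptor, at -1.83, and ENSG00000274021, at -0.61. The latter overlaps DUSP6 exons on the opposite strand, so its call, among the 2 lower ones there, may include DUSP6 reads.

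The Sprouty genes, whose products inhibit signalling from receptor tyrosine kinases to ERK, differed from each other. SPRY2 (ENSG00000136158.12, chromosome 13, 80335976 to 80341126, minus strand) had 41.9, 40.7, 45.5, 40.3 and 39.2 CPM in T24 and 40.2, 38.4, 41.1, 41.1 and 38.6 CPM in T24R2. Libraries of the lines overlapped for SPRY2, and the means were 41.5 ± 2.41 and 39.9 ± 1.29 CPM (SD, n = 5 each). Its log2 fold change of -0.06 had a 95% interval of -0.19 to 0.08 (adjusted p = 0.438 by edgeR's quasi-likelihood test, p = 0.214 by exact permutation), and its sign changed without scaling (0.11) and with upper-quartile normalization (0.016).

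SPRY4 (ENSG00000187678.10, chromosome 5, 142310427 to 142326455, minus strand) was among the called genes, with 49.3, 51.7, 52.8, 51.2 and 47.8 CPM in T24. The 5 libraries of T24R2 had 85.7, 87.6, 96.9, 80.4 and 95.6 CPM, all above T24 and more spread than the T24 values. SPRY4 rose from 50.6 ± 1.97 to 89.2 ± 6.95 CPM (SD, n = 5 each), which is 0.82 ± 0.06 (SE) in log2 units (adjusted p = 1.3e-15 by the same edgeR test). Per kilobase, SPRY2 was 1.68 ± 0.0699 times SPRY4 in T24 and 0.917 ± 0.0854 times SPRY4 in T24R2 (SD, n = 5 each), and the log2 ratio differed by -0.87 (adjusted p = 0.0119 by exact permutation over the 6 pairs). Of the 10 nearest tested genes of SPRY4, 7 were called higher and 2 lower (median log2 fold change 0.90), against 24.9% and 26.5% of all genes tested, with NDFIP1, an adaptor of ubiquitin ligases, at 1.03 and the growth factor FGF1 at 1.30 on either side. For SPRY2, 1 was called higher and 3 lower (median -0.27), the latter close to the share over all genes, with NDFIP2 at -0.66 and the pseudogene PTMAP5 at -0.26 nearest.

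ETV4 and ETV5 belong to the PEA3 group of ETS transcription factors. ETV4 (ENSG00000175832.13, chromosome 17, 43527844 to 43579620, minus strand) had 56.8, 59.3, 51.4, 51.2 and 57.9 CPM in T24 and 59.0, 57.6, 53.5, 52.5 and 54.8 CPM in T24R2. Its values overlapped, and the means, 55.3 ± 3.78 and 55.5 ± 2.75 CPM (SD, n = 5 each), differed by less than the spread between replicates. The log2 fold change was 0.0030 with a 95% interval of -0.12 to 0.13 (adjusted p = 0.967 by edgeR's quasi-likelihood test, p = 0.960 by exact permutation). Its neighbours included 5 called lower and 0 called higher of 10 (median -0.78), against 26.5% and 24.9% of all genes tested. DHX8, an RNA helicase gene on the opposite strand that shares 68 exon bases with ETV4 (1.93% of its length) and has more counts than ETV4, was at 0.01, and DUSP3, another phosphatase gene, at -0.19.

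ETV5 (ENSG00000244405.8, chromosome 3, 186046314 to 186110318, minus strand) had 67.7, 77.5, 64.9, 63.4 and 71.8 CPM in T24. T24R2 libraries had 80.7, 78.0, 83.6, 83.0 and 81.2 CPM. The highest T24 library, replicate 2, came close to the lowest T24R2 library, also replicate 2, without overlap. The means were 69.1 ± 5.73 and 81.3 ± 2.19 CPM (SD, n = 5 each), which is 0.23 ± 0.06 (SE) in log2 units (adjusted p = 3.5e-04 by the same edgeR test), which did not reach the minimum of 0.5. The log2 ratio of ETV4 to ETV5 differed by -0.23 between the lines (adjusted p = 0.0119 by exact permutation over the 6 pairs), a small difference that still exceeded the spread between libraries. On the same strand, ETV5 shared 164 exon bases with its neighbour DGKG, a diacylglycerol kinase gene, which had a log2 fold change of 1.82 at 0.845 CPM in T24 and 3.01 in T24R2. NMRAL2P, a pseudogene on the other side, was at 4.37 (0.520 CPM in T24 and 10.9 in T24R2). Of all 10 neighbours, 2 were called higher and 4 lower (median 0.02), against the same shares.

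**Figure D3:**
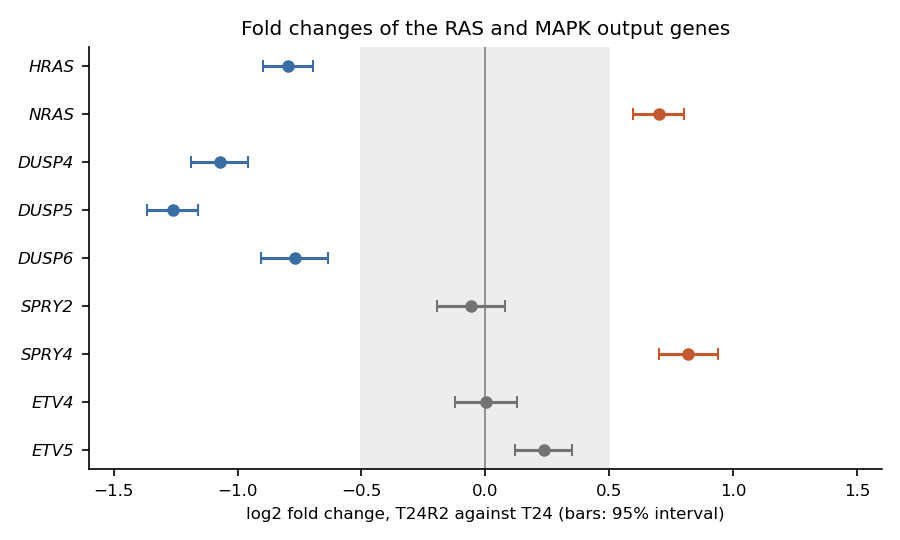
Log2 fold change of each of the 9 genes (x axis, T24R2 against T24, points with 95% intervals; blue called lower, orange called higher, grey not called). The shaded range from -0.5 to 0.5 holds SPRY2, ETV4 and ETV5, while DUSP5 is farthest below at -1.26 and SPRY4 farthest above at 0.82.

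The levels were also ordered per length, as CPM per kilobase of exon. In T24, DUSP5 (82.0 ± 5.19) and HRAS (62.0 ± 3.33) stood above the others, followed by NRAS (18.9 ± 0.805), and SPRY4 was lowest (7.71 ± 0.301, SD, n = 5 each). Between them lay ETV4, DUSP6, DUSP4, SPRY2 and ETV5, from 15.7 down to 12.0 CPM per kilobase, each overlapping its neighbour in the order. In T24R2, HRAS (35.7 ± 1.13), DUSP5 (34.2 ± 1.45) and NRAS (30.6 ± 1.62) came first, and neighbours in this order overlapped. ETV4 (15.8), then ETV5 (14.1), SPRY4 (13.6) and SPRY2 (12.4), the last 3 overlapping in turn, came before DUSP6 (9.01) and DUSP4 (6.57), which lay apart from all others. SPRY4 thus moved from last to sixth place and DUSP4 from sixth to last.

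Other genes of the pathway were taken as 9 lists by role, 81 genes in all, of which 72 were tested. Of these 72, 12 were called higher and 28 lower, 55.6% in all against 51.4% of all genes tested, with a median log2 fold change of -0.18 against 0.01. Among 7 other small GTPases related to RAS, 5 were called lower and 1 higher (median -0.69), against 26.5% and 24.9% of all genes tested. RRAS2 fell from 279.5 ± 10.7 to 127 ± 4.09 CPM (SD, n = 5 each) or by 1.14 on the log2 scale, and RRAS (-1.17), RALA (-1.14), RAP1B (-0.69) and RALB (-0.56) were also lower. MRAS was higher at a low level (3.20, from 0.579 to 5.43 CPM), and RAP1A was not called, with 47.3 and 49.2 CPM. The call of RALB was lost without scaling and with upper-quartile normalization.

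Of the genes that load RAS with GTP or bring such factors to receptors, 8 of 11 were tested. Of these 8, 2 were called higher and 2 lower (median 0.21), against 24.9% and 26.5% of all genes tested. The number of the 8 called higher was 4 without scaling, 3 with upper-quartile normalization and 1 by limma-voom and shrunken DESeq2. The exchange factor SOS1 rose from 42.1 ± 4.35 to 67.2 ± 3.63 CPM (0.67 in log2 units) while its adaptor GRB2 fell from 153 ± 5.57 to 89.0 ± 4.03 CPM (-0.78, SD, n = 5 each). RASGRF1 (0.51) and RASGRF2 (-2.21) were the other called genes, both under 10 CPM, and the call of RASGRF1 was lost when T24 replicate 2, 3 or 5 or T24R2 replicate 1, 3 or 5 was left out, and by limma-voom and shrunken DESeq2. The adaptor SHC1, with 434 and 421 CPM, was not called. Of 9 GTPase activators, which return RAS to its inactive form, 7 were tested. Among these 7, 1 was called higher and 3 lower (median -0.28), against the same shares of all genes. RASA3 fell from 101 ± 3.68 to 23.0 ± 3.65 CPM (SD, n = 5 each, -2.14), and DAB2IP (-1.11) and RASA2 (-0.99) also fell. RASA1 rose from 78.7 ± 3.27 to 167 ± 3.26 CPM (SD, n = 5 each, 1.08), with 14.7% of its exon bases overlapped by CCNH on the opposite strand. CCNH had 621 counts per T24 library and 1286 per T24R2 library, against 730 and 1811 for RASA1, so reads of both may be mixed. With genes overlapped over more than 10% left out, a check chosen after seeing the data, 0 of 6 were called higher and 3 lower. NF1, with 125 and 122 CPM, was not called. Among 7 genes of RAS lipid modification and transport, 1 was called, against 51.4% of all genes tested (median of the list -0.18). The called gene, the palmitoyltransferase gene ZDHHC9 (-0.66), lost the call without scaling. Without scaling, PDE6D, a carrier of lipid-modified proteins, gained a call as higher (0.53). ICMT, a methyltransferase of RAS, had 125 and 110.5 CPM without a call.

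In the cascade below RAS, the MEK genes MAP2K1 (log2 fold change 0.23) and MAP2K2 (-0.07) and the ERK gene MAPK3 (-0.48) were not called, although MAPK3, with 99.1 ± 5.64 CPM in T24 and 71.1 ± 6.87 CPM in T24R2 (SD, n = 5 each), did not overlap between the lines and was called when T24 replicate 1 or T24R2 replicate 3 was left out. In all, 4 of the 15 cascade genes were called higher and 2 lower (median 0.12), against 24.9% and 26.5% of all genes tested. KSR2, a scaffold that holds RAF and MEK together, had at most 3 counts in each T24 library and 36.1 ± 0.586 CPM in T24R2 (SD, n = 5), at least 105-fold higher when T24 is set to 3 counts per library. The ERK-activated kinase gene RPS6KA2 rose from 15.6 ± 2.63 to 106 ± 3.50 CPM (2.76), while its relatives RPS6KA1 (-0.93) and RPS6KA3 (-0.72) fell. LAMTOR3, a scaffold of MEK1 on late endosomes, rose from 18.6 ± 2.86 to 45.9 ± 3.01 CPM (1.30, SD, n = 5 each), and PEBP1, an inhibitor of the cascade, was higher too (0.85). On the opposite strand, ENSG00000261351 overlaps 20.5% of the exon bases of MAP2K1, and SNAPC5 overlaps 3.34%.

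MAPK phosphatases, Sprouty and Spred genes, and ETS factors and partners outside the 9 formed 3 lists. Their median log2 fold changes were -0.37 for the phosphatases, -0.89 for the Sprouty and Spred genes and -0.07 for the ETS factors and partners. No difference between lists was tested. Over all genes tested, 51.4% were called, 24.9% higher and 26.5% lower. Of 7 further MAPK phosphatases, 5 were tested and 1 was called, DUSP8, lower at 2.19 and 0.845 CPM (-1.36). DUSP1, the most abundant of the uncalled ones, had 201 ± 11.3 CPM in T24 and 146 ± 4.52 CPM in the resistant line (-0.47, SD, n = 5 each). Of 5 other Sprouty and Spred genes, 3 were tested and all 3 were called, SPRED1 (-1.43) and SPRED3 (-0.89) lower and SPRED2 (0.64) higher. Among 8 ETS factors and partners, 3 were called higher, ELK1 (0.79), SRF (0.64) and ETV1 (0.55), and 3 lower, ETS1 (-1.21), ETS2 (-0.97) and ELK3 (-0.68), with CIC, a repressor of the PEA3 genes, at -0.18 and not called. ETV1, the third PEA3 gene, lost its call without T24 replicate 2.

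The list of 12 other output genes of the pathway had 9 called lower and 0 higher and a median log2 fold change of -0.85. Over all genes tested, 26.5% were called lower and 24.9% higher, with a median of 0.01. This list was chosen with earlier results of these data known, so the comparison is a description and not independent support. HBEGF fell from 67.8 ± 6.24 to 8.66 ± 0.726 CPM (SD, n = 5 each), which is -2.97 ± 0.09 (SE) in log2 units (adjusted p = 1.1e-28 by edgeR's quasi-likelihood test). PHLDA1 fell from 605 ± 24.9 to 192 ± 11.1 CPM (-1.66) and FOSL1, which the study had picked as a candidate from these samples, from 456 ± 30.8 to 184 ± 4.29 CPM (-1.31, SD, n = 5 each). The other 6 were CCND1 (cyclin D1), EPHA4, IER3, SPHK1, MAFF and EPHA2, with log2 fold changes from -0.97 to -0.62. LIF, a cytokine gene with 224 and 189.6 CPM (-0.24), EGR1 (0.01) and IER2 (-0.05) were not called. The count called lower was 8 without scaling, where EPHA2 lost its call. It was 7 of 9 when genes overlapped over more than 10% of their exon bases from the opposite strand were left out. That check, chosen after seeing the data, left out CCND1, IER3 and the uncalled IER2.

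**Figure D4:**
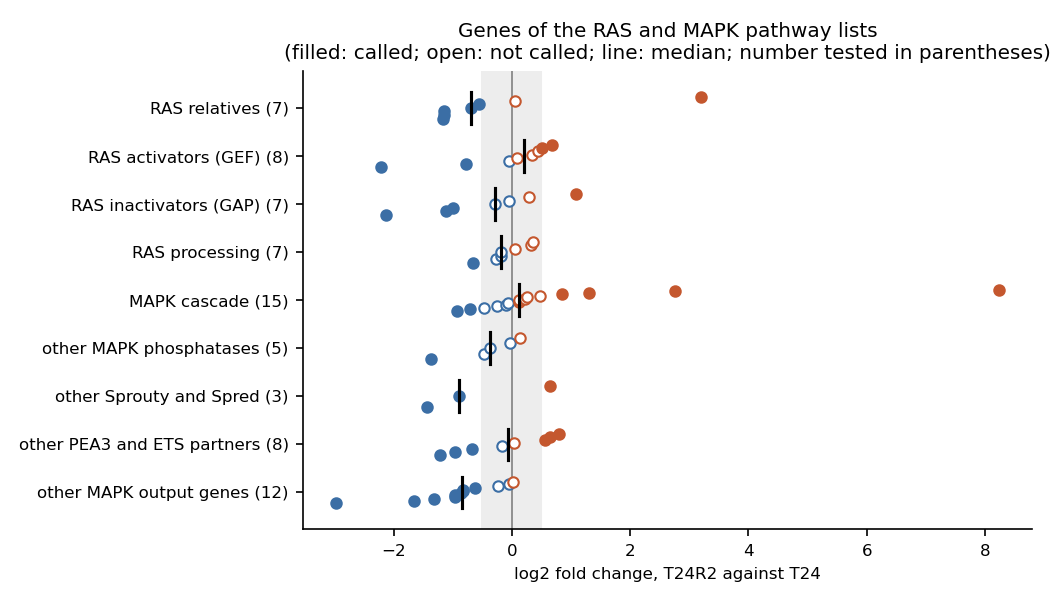
Log2 fold change (x axis, T24R2 against T24) of the tested genes of each pathway list (rows; filled points called, open points not called, vertical line the median, number tested in parentheses). The list of other MAPK output genes has 9 of 12 genes called lower and 0 higher (26.5% and 24.9% over all genes tested). The lists were chosen with earlier results of these data known. The point at the far right is KSR2, whose plotted value is a fit against near-zero counts and not a bound.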

How the data were processed

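RNA-seq libraries of T24 and T24R2 (5 each) were compared. According to the methods and the submitters' processing notes, the authors aligned reads to hg38 with STAR 2.7.0, kept unique, deduplicated alignments with SAMtools 1.10 and counted fragments per GENCODE 39 gene with featureCounts 2.0.1 (strand option 1). The deposited values are raw counts per gene; the deposited Length column gave exon kilobases. Deduplication can lower counts of abundant transcripts. This depth put 345 or more counts behind each member value; 95% intervals of fold changes come from the edgeR fit and include the spread between libraries, and floors (3 counts per library) cover counting error only. Here, counts of all 61533 genes were filtered with filterByExpr, scaled by TMM and tested with edgeR 4.0.16 in R 4.3.3 (glmQLFit, glmQLFTest, Benjamini-Hochberg over 16181 genes); calls used the study's thresholds (adjusted p under 0.05, absolute log2 fold change above 0.5). CPM used TMM library sizes. Within-library log2 ratios (0.5 CPM added) and single genes were tested by exact permutation over all 252 splits in R; tables were joined in Python 3.11.15 (numpy 2.4.6, pandas 2.3.3), and plots used matplotlib 3.10.9. The fit was tested on simulated data. Members and lists were chosen with earlier results of these data known. The text names all 9 members. From each list it names up to 3 called genes with the largest change among those with at least 10 CPM in 1 line and the uncalled gene with most CPM. MEK and ERK genes, nearest neighbours and the 2 genes most alike to HRAS and NRAS are also named. Named after their values were seen were MRAS, RAP1B, RALB, RASGRF1, RASGRF2, RASA2, PEBP1, RPS6KA1, RPS6KA3, DUSP8, SRF, ETV1, ELK3, PKP3, LMNTD2, EGR1, IER2, PDE6D, the 6 further lower output genes and some markers. Alternatives were other scalings, DESeq2 1.42.0 with and without shrinkage, limma-voom (limma 3.58.1), other count filters and thresholds, a replicate block, other pseudocounts, leaving out each library, and taking off opposite-strand counts. Removing genes overlapped over 10% and taking opposite-strand counts off DUSP6 in its ratios were added after seeing the data. The MeRIP-seq data were not used here, and values for a few genes are left out here.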

Additional observations from a re-analysis of the deposited data

How the results depend on the processing

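The call of each of HRAS, NRAS, DUSP4, DUSP5, DUSP6 and SPRY4 held under every scaling, test and count filter tried and in the 10 fits that left out 1 library, so the number called was 6 throughout. It was 7 with adjusted p alone, which added ETV5 (0.23), and 5 when DUSP6 was left out as overlapped over more than 10%, a check added after seeing the data. With an absolute log2 fold change over 1, 2 members were called, 0 higher and 2 lower (DUSP4 and DUSP5), 3 genes of the MAPK output list were called lower and 4211 of all genes were called, 1918 higher and 2293 lower. With the filter raised to an average of 100 counts, 4991 were called, 2350 higher and 2641 lower, as fewer genes entered, and with adjusted p alone 12212, 6128 higher and 6084 lower. Leaving out 1 library gave 8398 to 8466 calls over all genes, and log2 fold changes of -0.83 to -0.78 for HRAS, 0.67 to 0.73 for NRAS, -1.10 to -1.04 for DUSP4, -1.29 to -1.23 for DUSP5, -0.81 to -0.73 for DUSP6 and 0.79 to 0.86 for SPRY4. SPRY2 changed sign without scaling (0.11) and with upper-quartile normalization (0.016), and ETV4 with RLE size factors (-0.0020), DESeq2 with and without shrinkage (-0.0020) and no count filter (-0.00030), and between -0.029 and 0.028 with 1 library left out, all uncalled. The DUSP4 to DUSP5 difference ranged from 0.15 to 0.24 with 1 library left out, and that of DUSP4 to DUSP6 was -0.19 with opposite-strand counts taken off DUSP6 and no longer passed. Replicate numbers did not pair the samples. Same-numbered libraries had correlated deviations of 0.0048 to 0.060, 0 of 5 over 0.1, and 1 of 5 correlated best with its own number. With a replicate block, 6 members, 9 genes of the output list and 8240 of all genes were called. No gap between 1 library and the others of its line reached Dixon's critical value in 18 comparisons of members and lines, where chance gives 0.9. At this depth, 3 counts, the floor used for a library, corresponded to at most 0.343 CPM in T24 and at most 0.295 CPM in T24R2.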
